A study of Arabidopsis thaliana with 53 samples.

Results

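Genes of the chloroplast genome were followed through leaf RNA of Arabidopsis thaliana, chosen as every row of the gene count table whose identifier begins with ATCG. This gave 81 genes out of 27501 rows, beside 29 rows for genes of the mitochondrial genome. RNA was sequenced from leaves of 53 single plants. Their ancestors (M1 seedlings) had been raised on medium with 160 µM etoposide, which traps topoisomerase II on DNA breaks, or with its solvent DMSO, and lines were then kept by self-fertilization. The labels give the etoposide descendants as M3 plants and the 9 DMSO plants as M2 plants. The study's methods instead give the DMSO plants as M3 too, and this difference was not resolved. All etoposide groups thus share the treated ancestry.

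The etoposide descendants belonged to 4 lines. In the virescent line juvenile leaves green late, and 6 virescent plants were sequenced with 4 relatives that lacked the phenotype. The study took mature leaves, and it reports normal pigmentation in adult virescent plants. The results on this line are thus not from pale juvenile leaves. The short-internode dwarf and the brassinosteroid-like (BR-like) dwarf lines were each represented by 6 dwarf plants and 4 relatives. The variegated line gave 13 green plants, of which 3 had variegated progeny and 10 had none, and 1 white plant. In each of the other 3 lines the phenotypic plants came from 2 M2 families and all 4 relatives from 1 other M2 family, so family and phenotype cannot be told apart. The DMSO plants came from 3 families, and the white plant shared its family with 5 of the green plants. A supplementary list of the study gives virescent plant 1 as a relative without the phenotype. The label was kept, and the number of chloroplast genes that passed without that plant is given below.

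Plastids read their own genome with 2 kinds of RNA polymerase. The plastid-encoded polymerase resembles that of bacteria, takes its promoter specificity from nuclear-encoded sigma factors and, in the chloroplast, is surrounded by nuclear-encoded associated proteins. It transcribes most genes of the photosynthetic apparatus. The nuclear-encoded polymerase is a single-subunit enzyme of the phage type, and in tobacco plastids that lack the plastid-encoded enzyme it still transcribes housekeeping genes such as those for ribosomal proteins. Chloroplast messages normally carry no poly(A) tail, and a tail marks them for decay. Because these libraries were made by poly(A) selection, the counts compare plants for a given gene and do not rank genes by the amount of RNA. Whether a difference lies in the amount of a message or in its tail was not tested.

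The reference annotation pairs few ATCG identifiers with a gene. RefSeq notes on nuclear genes of the TAIR10.1 assembly name some of them as the best match or the source of a nuclear gene, and 5 were placed here at the chloroplast gene to which that nuclear gene aligned best (chromosome Pltd, 154478 bases). Others are given by identifier alone with no role. ATCG00670 is clpP at Pltd 69910 to 71882 on the minus strand, which encodes the proteolytic subunit of the Clp protease and has 3 coding exons. ATCG00660 is rpl20 at 68512 to 68865 on the minus strand, which encodes a protein of the large plastid ribosomal subunit. ATCG00420 is ndhJ at 48677 to 49153 and ATCG00430 is ndhK at 49257 to 49934, both on the minus strand. They lie next to each other and encode subunits of the chloroplast NADH dehydrogenase-like complex, which carries electrons around photosystem I. The note for ATCG00430 uses an older name, photosystem II reaction center protein G. ATCG00530 is cemA at 60741 to 61430 on the plus strand, which encodes a protein of the inner envelope.

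The results below turn most on 3 of these genes, and the first 30 coding bases of each, with the start codon in capitals, show the messages that were counted. They are written 5′ to 3′ on the strand of the gene and were taken from RefSeq (TAIR10.1).
clpP, Pltd:71853-71882: ATGcctattggcgttccaaaagtacctttt
ndhJ, Pltd:49124-49153: ATGcagggcactttgtccgtttggctagcc
ndhK, Pltd:49905-49934: ATGaattccattaagtttcccatacttgat
The 150 bases before the start codon of each placed gene were searched on the gene's strand for the letters TTGACA and TATAAT, which are the consensus letters of the bacterial promoter boxes that the plastid-encoded polymerase can read. Neither was found before any of the 5 genes. Of 83 such windows over the chloroplast chromosome, 7 held TTGACA (8.43%) and 13 held TATAAT (15.7%). The window before ndhJ overlapped ndhK by 47 bases and that before ndhK overlapped ndhC by 84 bases.

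Depth was sufficient for most but not all of these genes. Total estimated counts lay between 29739361 and 116654254 per library, and a library had counts for 65 to 76 of the 81 chloroplast genes. Over the 53 libraries 49 genes had a median of at least 50 counts, 17 had a median of 10 to 49, and 15 had less. Counts were whole numbers in every library for 50 genes (within 0.01). For 7 genes (ATCG00470, ATCG00480, ATCG00830, ATCG00900, ATCG00905, ATCG01000 and ATCG01130) 29 or more libraries held fractional values, which shows reads divided between sequences, and their levels are uncertain to that extent. In addition, 19 nuclear genes share at least 1 stretch of 31 bases with the chloroplast chromosome.

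Chloroplast genes took between 0.401% and 1.104% of all counts, with a median of 0.678% over the 53 libraries. The share was 0.673% ± 0.122 (SD, n = 9) in DMSO plants, 0.726% ± 0.081 (n = 6) in virescent plants and 0.637% ± 0.124 (n = 4) in their relatives. By plant, the 4 virescent relatives held 0.498%, 0.585%, 0.678% and 0.786%, and the virescent plants ranged from 0.640% over a median of 0.728% to 0.857%. The groups overlapped. The white plant, at 0.937%, lay inside the range of the 13 green plants of its line (0.401% to 1.104%). The widest spread belonged to the 10 green plants without variegated progeny, whose SD was 0.223 percentage points.

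**Figure D1:**
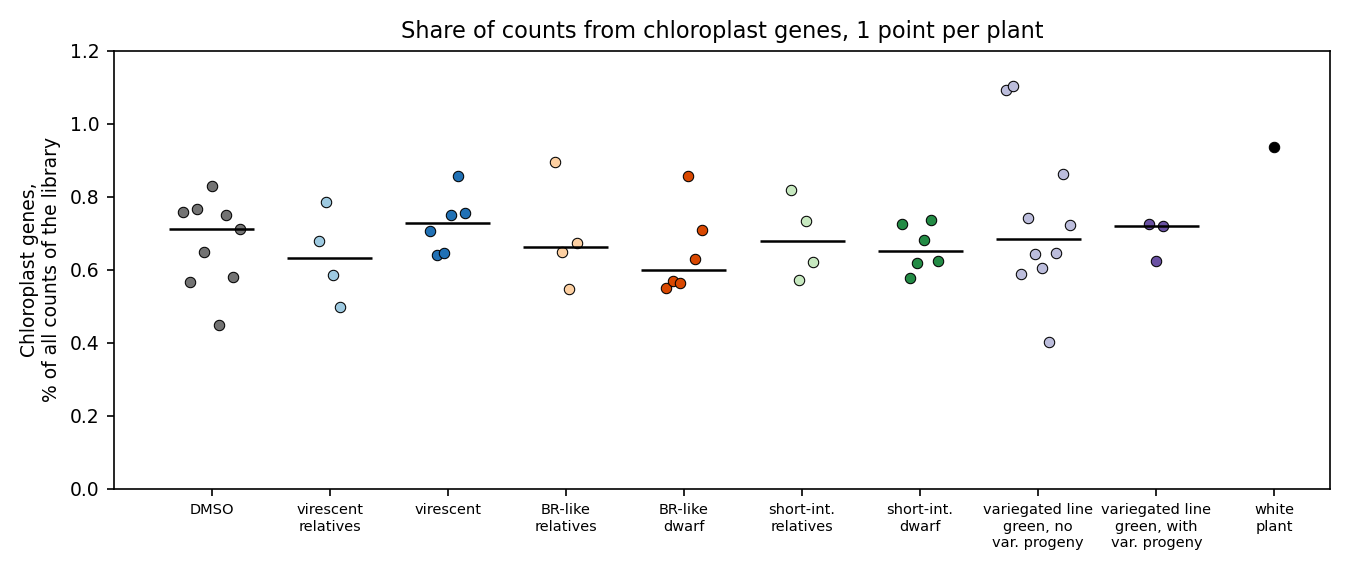
Share of all counts that came from the 81 chloroplast genes, in percent (vertical axis), for each of the 53 plants (points) by group (horizontal axis), with the group median as a bar. Groups overlap throughout, and the white plant at 0.937% lies within the range of the green plants of its line.

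None of the 11 comparisons of mean log2 share passed a threshold of 0.05. Virescent plants stood 1.15 times above their relatives (exact two-sided permutation test, p = 0.2) and 1.09 times above DMSO plants (exact p = 0.349). The other 9 ratios lay between 0.938 and 1.07, with exact p-values from 0.552 to 0.925, and the adjusted p was 0.925 in each of the 11. The 2 families of virescent plants differed in their distance from the relatives, at log2 differences of 0.08 for family 13B_25 and 0.33 for family 13B_46 (exact p = 0.743 and 0.171), and the difference between them was not tested.

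Across the 53 libraries the chloroplast share was set against 3 other measures of the library. Its correlation with total counts was r = 0.148 (permutation p = 0.285; rho = 0.133, p = 0.341), and with the mitochondrial share it was r = -0.12 (p = 0.392; rho = -0.184, p = 0.188). With the summed level of 6 nuclear mesophyll markers, which encode Rubisco subunits, Rubisco activase and antenna proteins, it was r = 0.209 (p = 0.133; rho = 0.285, p = 0.0392). No Pearson correlation passed after adjustment over the 3 measures (adjusted p = 0.392 each), nor did the rank correlation with the mesophyll markers (adjusted p = 0.118). Without the white plant and short-internode relative 2, the plants farthest from the median on that axis, r with the mesophyll markers was 0.323 (p = 0.0196). Centred within groups, over 52 plants, it was 0.44 (p = 0.00104). The centred value for the mitochondrial share was -0.33 (p = 0.0175) and for total counts it was 0.187 (p = 0.18). Leaves were sampled in bulk, so fewer cells of a type and less RNA per cell cannot be told apart.

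A few identifiers made up most of the chloroplast counts. ATCG00480 held on average 55.4% of them, ATCG00470 13%, ATCG00830 6.24%, ATCG00790 3.17%, ATCG00430 (ndhK) 2.53% and ATCG00270 2.33%, and these 6 genes together held 82.7%. In the 52 plants other than the white one ATCG00480 stayed between 46.1% and 60.7% of chloroplast counts. In the white plant it was 26%. The sum of differences from the median composition, taken as the percentage of counts that would have to change gene, was 1.67% to 11.8% in the 52 other plants and 44.2% in the white plant. The white plant thus stood apart in the makeup of its chloroplast counts, while their share of all counts lay within the range of the other plants. That share includes ATCG00480, which took a smaller part of it in the white plant. A share without ATCG00480 is not given for single plants, so the white plant's other chloroplast genes may stand apart in their summed share.

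By level, ATCG00480 ranged in DMSO plants from 2425 over a median of 3802 to 4588 CPM (counts scaled to library size with the trimmed mean of M-values), in virescent plants from 4142 over 4641 to 5306 CPM, and in their 4 relatives from 3044 to 4045 CPM. Virescent plants thus lay above all their relatives and within reach of the DMSO plants, and neither comparison passed (log2 fold change 0.43 ± 0.16 SE, adjusted p = 0.0616, and 0.35 ± 0.13, adjusted p = 0.067). ATCG00830 ranged from 409.9 over a median of 500.1 to 575.5 CPM in virescent plants and from 303.5 to 491.9 CPM in relatives, and its median in DMSO plants was 414.1 CPM. These groups overlapped, and neither comparison passed (adjusted p = 0.138 and 0.0563). The level of ndhK was close to even, at medians of 170.2, 181.6 and 146.5 CPM.

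Levels of single chloroplast genes scattered between plants of a group. For the 49 genes with a median of at least 50 counts, the SD of log2 CPM within groups had a median of 0.388, against 0.294 for all 16772 genes at that depth. It was lowest for ndhJ at 0.211 and highest for ATCG01000 at 1.26. ATCG01000 was at 0 in 11 libraries and is one of the genes with fractional counts.

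No chloroplast gene was called in any comparison by the rule of the study, an adjusted p below 0.01 with an absolute log2 fold change above 1 (edgeR's quasi-likelihood test over all genes). For virescent plants against relatives 0 of 68 chloroplast genes past the filter on low counts were called, where 5.4% of all 19385 genes were. Before adjustment, 20 of the 68 had a p below 0.05, beside 6915 of the 19385. Against DMSO plants 0 of 68 were called beside 2.61% of all genes, and 14 had an unadjusted p below 0.05, beside 6429 of all genes. Relatives of the virescent plants against DMSO plants gave 0 of 68 beside 0.366%, with 11 below 0.05 unadjusted, beside 3889 of all genes. DESeq2 on the same libraries also called 0 in each of these 3 comparisons. Its unadjusted counts were 21, 16 and 11 chloroplast genes, beside 7217, 6743 and 4151 of all genes.

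The dwarf lines and the green plants of the variegated line gave the same count. BR-like dwarf plants against their relatives and against DMSO plants, and those relatives against DMSO plants, each gave 0 of 67 chloroplast genes. Of all genes 0.0563%, 2.88% and 0% were called. An unadjusted p below 0.05 was found for 0, 4 and 1 of the 67, beside 3128, 5714 and 1441 of all 19546 genes. Short-internode dwarf plants in the same 3 comparisons each gave 0 of 67 beside 0.0258%, 0.454% and 0%. Unadjusted, 2, 0 and 1 of the 67 were below 0.05, beside 5141, 4576 and 4946 of all 19389 genes. Green plants of the variegated line against DMSO plants gave 0 of 68 beside 0.485%. Green plants with against those without variegated progeny gave 0 of 68 beside 0.844%. DESeq2 called 0 in each of these 8 comparisons as well. The median log2 fold change over the tested chloroplast genes lay between -0.11 (short-internode dwarf against relatives) and 0.17 (virescent against DMSO plants). It lay between -0.05 and 0.02 over all genes tested.

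Where the threshold was an adjusted p below 0.05 with no limit on the fold change, virescent plants stood apart from relatives for 10 of 68 chloroplast genes (14.7%), of which 8 were higher and 2 lower. Of all genes tested 22% passed this threshold (10.8% higher, 11.1% lower), so the share of chloroplast genes was not above that background. Against DMSO plants 8 of 68 passed (11.8%; 6 higher, 2 lower) beside 17% of all genes (7.86% higher, 9.16% lower). The same virescent plants enter both comparisons. Genes were named here after their values were seen.

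The level of clpP was higher in virescent plants in both comparisons. It was 11.2, 13.8, 14.3, 14.4, 16 and 18.1 CPM in the 6 virescent plants and 6.68, 7.57, 9.12 and 12.5 CPM in the 4 relatives. DMSO plants ranged from 5.75 over a median of 7.98 to 11.4 CPM. Only the lowest virescent plant fell below the highest relative and the highest DMSO plant. The log2 fold change was 0.70 ± 0.20 SE against relatives (adjusted p = 0.0185) and 0.81 ± 0.16 against DMSO plants (adjusted p = 0.00236). The median was 14.3 CPM in family 13B_25 and 16 CPM in family 13B_46. Against relatives, leaving out 1 plant at a time moved the log2 fold change from 0.58 to 0.90, with adjusted p up to 0.0725. Against DMSO plants it moved from 0.74 to 0.87, with adjusted p up to 0.00762.

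The ribosomal protein gene rpl20 was counted at under 1 CPM in all 52 plants other than the white one and did not pass (0.29 ± 0.43 SE against relatives, adjusted p = 0.649).

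The neighbouring identifiers ATCG00900 and ATCG00905 were higher against both groups. ATCG00900 ranged from 167.3 to 220.2 CPM in virescent plants, from 92.2 to 148.4 CPM in relatives and from 82.3 to 159.7 CPM in DMSO plants, so virescent plants lay above every plant of both groups. Its log2 fold change was 0.64 ± 0.17 SE against relatives (adjusted p = 0.0145) and 0.58 ± 0.14 against DMSO plants (adjusted p = 0.00865). ATCG00905 gave 0.58 ± 0.19 (adjusted p = 0.0381) and 0.69 ± 0.15 (adjusted p = 0.00601). Both have fractional counts.

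ATCG00020 was lower in virescent plants in both comparisons. It was 14.8, 17.7, 20.2, 22.3, 24.9 and 27.5 CPM in virescent plants and 26.8, 35.1, 38.4 and 46.2 CPM in relatives. The highest virescent plant just exceeded the lowest relative. The log2 fold change fell by 0.79 ± 0.21 SE against relatives (adjusted p = 0.0135) and by 0.61 ± 0.18 against DMSO plants (adjusted p = 0.027), which ranged from 19 over a median of 29.8 to 46 CPM.

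Further identifiers passed in 1 or both comparisons. ATCG00120 was higher against relatives (0.53 ± 0.18 SE, adjusted p = 0.0409) and against DMSO plants (0.54 ± 0.14, adjusted p = 0.0152). ATCG00840 (0.73 ± 0.20, adjusted p = 0.0143), ATCG00890 (0.77 ± 0.23, adjusted p = 0.0261) and ATCG00280 (0.45 ± 0.16, adjusted p = 0.0437) were higher against relatives, and ATCG00160 was lower (-0.97 ± 0.35, adjusted p = 0.0496). Against DMSO plants ATCG01020 (0.58 ± 0.19, adjusted p = 0.0459) and ATCG00220 (1.5 ± 0.49, adjusted p = 0.0403) were higher and ATCG00190 was lower (-0.43 ± 0.13, adjusted p = 0.033). ATCG00220 had a median of 5 counts. For the genes that passed in 1 comparison only, the difference between the comparisons was not tested.

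**Figure D2:**
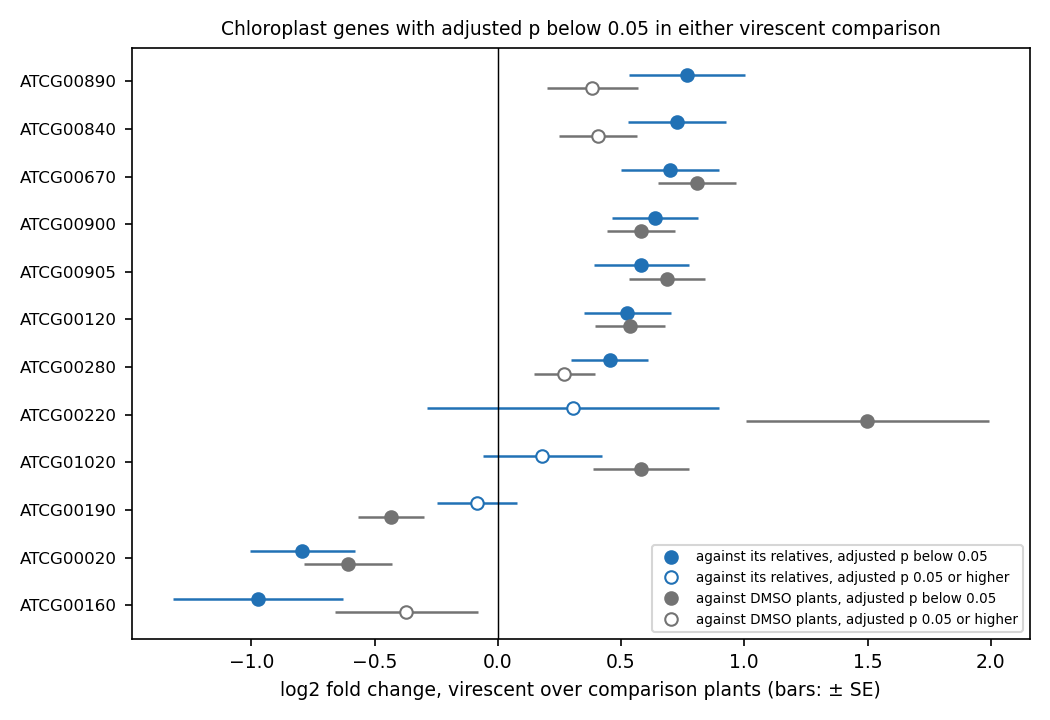
Log2 fold change of virescent plants over relatives (blue) and over DMSO plants (grey) on the horizontal axis, with bars of 1 SE, for 12 chloroplast genes with an adjusted p below 0.05 in either comparison (filled points). Values for clpP (ATCG00670) are 0.70 and 0.81, and those for ATCG00020 are -0.79 and -0.61.

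These calls moved with single plants. Of the 10 genes against relatives, 10 passed in DESeq2, 6 without the libraries that the authors' fits left out, 5 without virescent plant 1 and 1 in every fit that left out 1 plant. Of the 8 genes against DMSO plants, the same counts were 8, 7, 5 and 4. Each of these genes kept its sign in every fit that left out 1 plant. Which genes passed without virescent plant 1 is not listed here, so a named gene may rest on that plant. The ranges given for clpP with 1 plant left out include that fit.

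Beside these genes, 4 of the 6 nuclear mesophyll markers were higher in virescent plants than in relatives at an adjusted p below 0.05, of which 2 were called. Of all genes 10.8% were higher at that threshold and 5.4% were called in either direction. Against DMSO plants 3 of the 6 were higher, and all 3 were called, beside 7.86% of all genes higher and 2.61% called in either direction. The same 3 antenna protein genes (LHCB1.1, LHCB2.1 and LHCB4.1) were also higher than in DMSO plants at an adjusted p below 0.05 in both dwarf lines. Of them 2 were called in BR-like dwarf plants (2.88% of all genes) and 1 in short-internode dwarf plants (0.454%). In green plants of the variegated line LHCB2.1 was lower than in DMSO plants. Summed mesophyll markers ranged from 24190 to 48870 CPM in virescent plants, from 19650 to 26610 CPM in relatives and from 17290 to 33240 CPM in DMSO plants. The antenna protein genes LHCB1.1 (CAB2) and LHCB2.1 rose by 2.44 ± 0.52 SE and 1.68 ± 0.33 on the log2 scale against relatives (adjusted p = 0.00346 and 0.0024). The Rubisco activase gene RCA did not pass and had a median of 4552 CPM in virescent plants, 5589 CPM in relatives and 6416 CPM in DMSO plants (-0.29 ± 0.23 against relatives, adjusted p = 0.383). The part of these levels in the chloroplast values was not tested. Of the 8 nuclear genes for sigma factors and phage-type polymerases, 0 passed either threshold in either comparison. Of the 12 genes for proteins associated with the plastid-encoded polymerase, 0 were called, and 3 were lower at an adjusted p below 0.05 in each comparison, where 11.1% of all genes were lower against relatives and 9.16% against DMSO plants. Against relatives these were PAP10 (TRX z, -0.43 ± 0.14, adjusted p = 0.0333), PAP3 (PDE312, -0.34 ± 0.12, adjusted p = 0.0452) and PAP6 (FLN1, -0.34 ± 0.12, adjusted p = 0.0487). Of 12 genes for plastid RNA decay and stability 0 were called, and the endonuclease CSP41A (0.52 ± 0.17, adjusted p = 0.0297) and the RNA-binding protein HCF107 (0.64 ± 0.21, adjusted p = 0.0325) were higher than in relatives at the wider threshold, which 10.8% of all genes passed as higher.

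In the green plants of the variegated line, 2 of 68 chloroplast genes (2.94%) differed from DMSO plants at an adjusted p below 0.05, beside 14.8% of all genes. ATCG00330 ranged from 9.82 over a median of 18.5 to 59 CPM in green plants and from 9.58 over 13.3 to 16.8 CPM in DMSO plants (log2 fold change 0.83 ± 0.26 SE, adjusted p = 0.0355). ATCG00500 ranged from 0.292 over 0.716 to 1.03 CPM against 0.279 over 0.381 to 0.548 CPM (0.82 ± 0.24, adjusted p = 0.0248). The groups overlapped for both, and neither passed in every fit that left out 1 plant.

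The white plant was a single plant, so its values are described beside the green plants of its line with no test. Among the 49 genes with a median of at least 50 counts it had 26 at least 2-fold above the median of the 13 green plants and 9 at least 2-fold below. Of all 16772 genes at that depth, 11.5% were at least 2-fold above and 17.7% at least 2-fold below. It lay above all 13 green plants for 27 of the 49 chloroplast genes and below all 13 for 8, where the shares over all genes were 23.3% and 27.5%. Set against all 52 other plants, it was above every one for 25 genes and below every one for 8. Shares over all genes are not given for that wider set, so these counts do not set chloroplast genes apart. The median ratio was 2.2 over the 49 chloroplast genes and 0.966 over all genes at that depth.

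Among these 49 genes the 5 largest ratios were those of ATCG01100, ATCG01110, ATCG01050, ATCG01120 and ATCG01130. ATCG01100 was at 31 CPM in the white plant and from 2.33 over a median of 3.57 to 4.54 CPM in the green plants, a ratio of 8.68. ATCG01110 was at 81.5 CPM against 6.27 over 10.5 to 13.7 CPM, a ratio of 7.75. Ratios of the other 3 were 6.09, 5.96 and 5.81. These identifiers are neighbours in number: 9 identifiers from ATCG01050 to ATCG01130 had a median of at least 10 counts, and all 9 were at least 2-fold higher in the white plant, by 4.5 to 9.04 times. The ratio of 9.04, that of ATCG01080, and one of 8.19, that of ATCG01060, came from genes with medians of 27 and 12 counts.

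The placed genes clpP and rpl20 were also higher. In the white plant clpP was at 36 CPM, against 6.14 over a median of 8.78 to 14.7 CPM in the green plants and at most 18.1 CPM in any of the other 52 plants, a ratio of 4.1. The level of rpl20 was 3.26 CPM against 0.283 over 0.445 to 0.885 CPM, a ratio of 7.32, from 216 counts. Both thus lay above every other plant.

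Among the 49 genes the 5 smallest ratios were those of ATCG01000, ndhJ, ndhK, ATCG00020 and ATCG00440. The level of ndhJ was 11.6 CPM in the white plant, from 771 counts, and from 33.8 over a median of 56.4 to 70.3 CPM in the green plants, a ratio of 0.206. The level of ndhK was 42.9 CPM against 134.2 over 180.9 to 344.4 CPM, a ratio of 0.237. For both genes the white plant was below every other plant. Other genes of their complex were not placed, and identifiers given with no role, higher ones included, may belong to it. These 2 genes thus do not stand for the complex. ATCG00020 had a ratio of 0.26 at 12.2 CPM and ATCG00440 one of 0.318 at 7.97 CPM. ATCG01000 had 0 counts, but it shares reads with other sequences, was at 0 in 11 libraries and had green plants at 0 as well. Of the 17 genes with a median of 10 to 49 counts, ATCG00630 had the smallest ratio, 0.0462. It was at 0.0604 CPM from 4 counts in the white plant, below every other plant, and from 0.399 over 1.31 to 2.03 CPM in the green plants. ATCG00070 had a ratio of 0.251 from 7 counts. The envelope protein gene cemA was at 0.427 of the green median and just inside the green range.

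**Figure D3:**
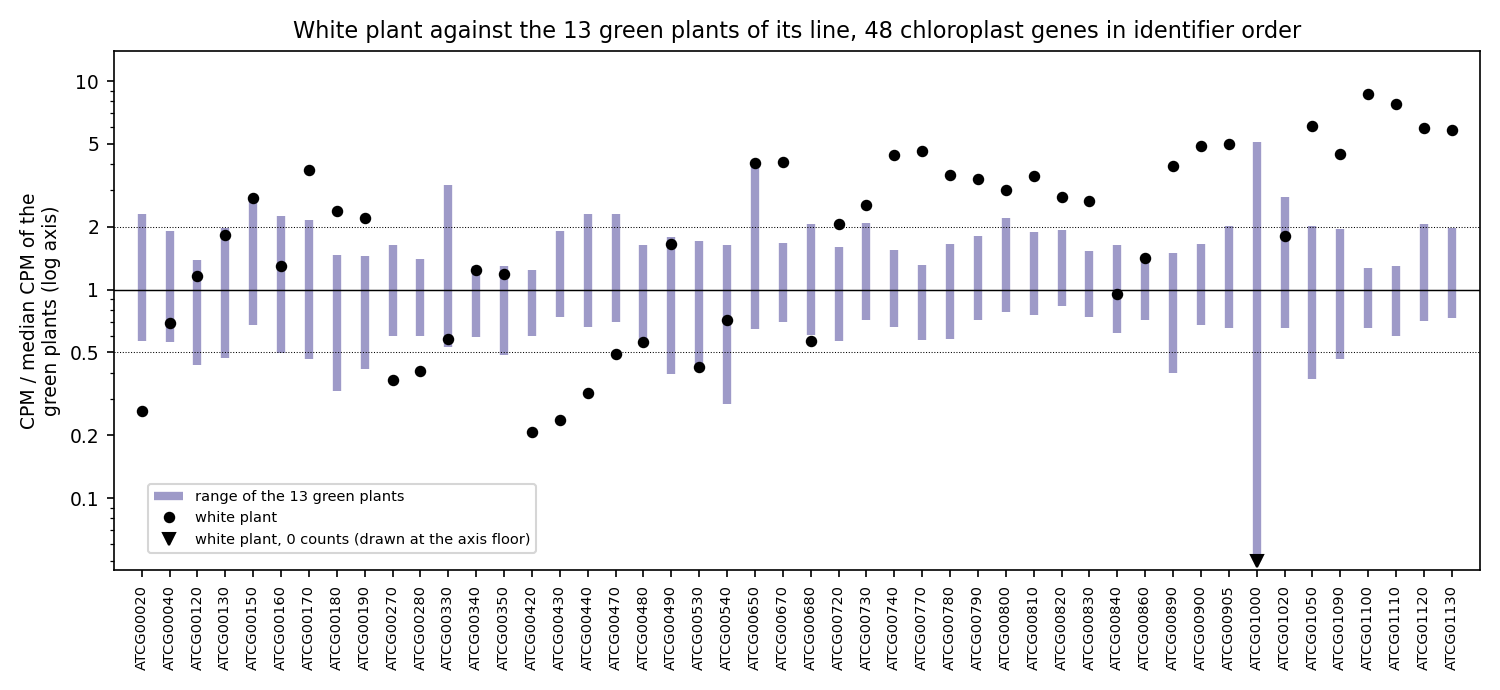
Level of 48 chloroplast genes in the white plant (black points) and range of the 13 green plants of its line (bars), each divided by the median CPM of the green plants on a log axis, with genes in the order of their identifiers. Genes lie above the green range in the runs from ATCG00770 to ATCG00830 and from ATCG01050 to ATCG01130 and below it from ATCG00420 to ATCG00440.

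Some of the higher and lower genes lay in runs along the identifiers. Others stood alone, among them ATCG00150 (ratio 2.76), ATCG00020 (0.26) and cemA (0.427). Whether the runs exceed those of a random order was not tested. The 4 genes from ATCG00420 to ATCG00470 were all at least 2-fold lower (ratios 0.206 to 0.491), and the 7 genes from ATCG00770 to ATCG00830 were all at least 2-fold higher (2.67 to 4.64). The 3 genes from ATCG00890 to ATCG00905 were higher by 3.91 to 4.97 times. The 6 genes with the most counts fell on both sides. ATCG00480 was at 1858 CPM, a ratio of 0.56 that just stayed in the green range of 1795 to 5446 CPM, and ATCG00470, ndhK and ATCG00270 lay below the range. ATCG00830 was at 1033 CPM and ATCG00790 at 596.8 CPM, 2.67 and 3.38 times the green medians and above the range. Of the 17 genes with a median of 10 to 49 counts, 7 were above all green plants, 3 below all and 7 within their range. Shares over all genes at that depth are not given.

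Other scales moved the counts of chloroplast genes by a few genes, while those of all genes moved more on 1 scale. Scaled to nuclear counts, 28 of the 49 chloroplast genes were at least 2-fold higher and 7 lower. On that scale the median ratio over all genes moved from 0.966 to 1.16, with 17.5% of them at least 2-fold higher and 13.8% lower, so the more common direction among all genes turned. As a share of chloroplast counts, 24 were higher and 11 lower. Against the 5 green plants of its own family alone, 26 were higher and 10 lower, beside 11.9% and 17.3% of all genes. The ratios of clpP on these 3 scales were 5.07, 3.54 and 4.05, and those of ndhK were 0.267, 0.203 and 0.237.

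The quotient of clpP to ndhK within a library needs no scaling. It was 0.839 in the white plant and from 0.0376 to 0.0596 in the green plants of its line. In virescent plants it ranged from 0.0616 over a median of 0.0892 to 0.0926, in their 4 relatives from 0.0427 to 0.0486 and in DMSO plants from 0.0338 to 0.0839. Virescent plants lay above all their relatives but crossed the DMSO plants, and the white plant was far above every other plant. Both genes entered results above, so no test is given.

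**Figure D4:**
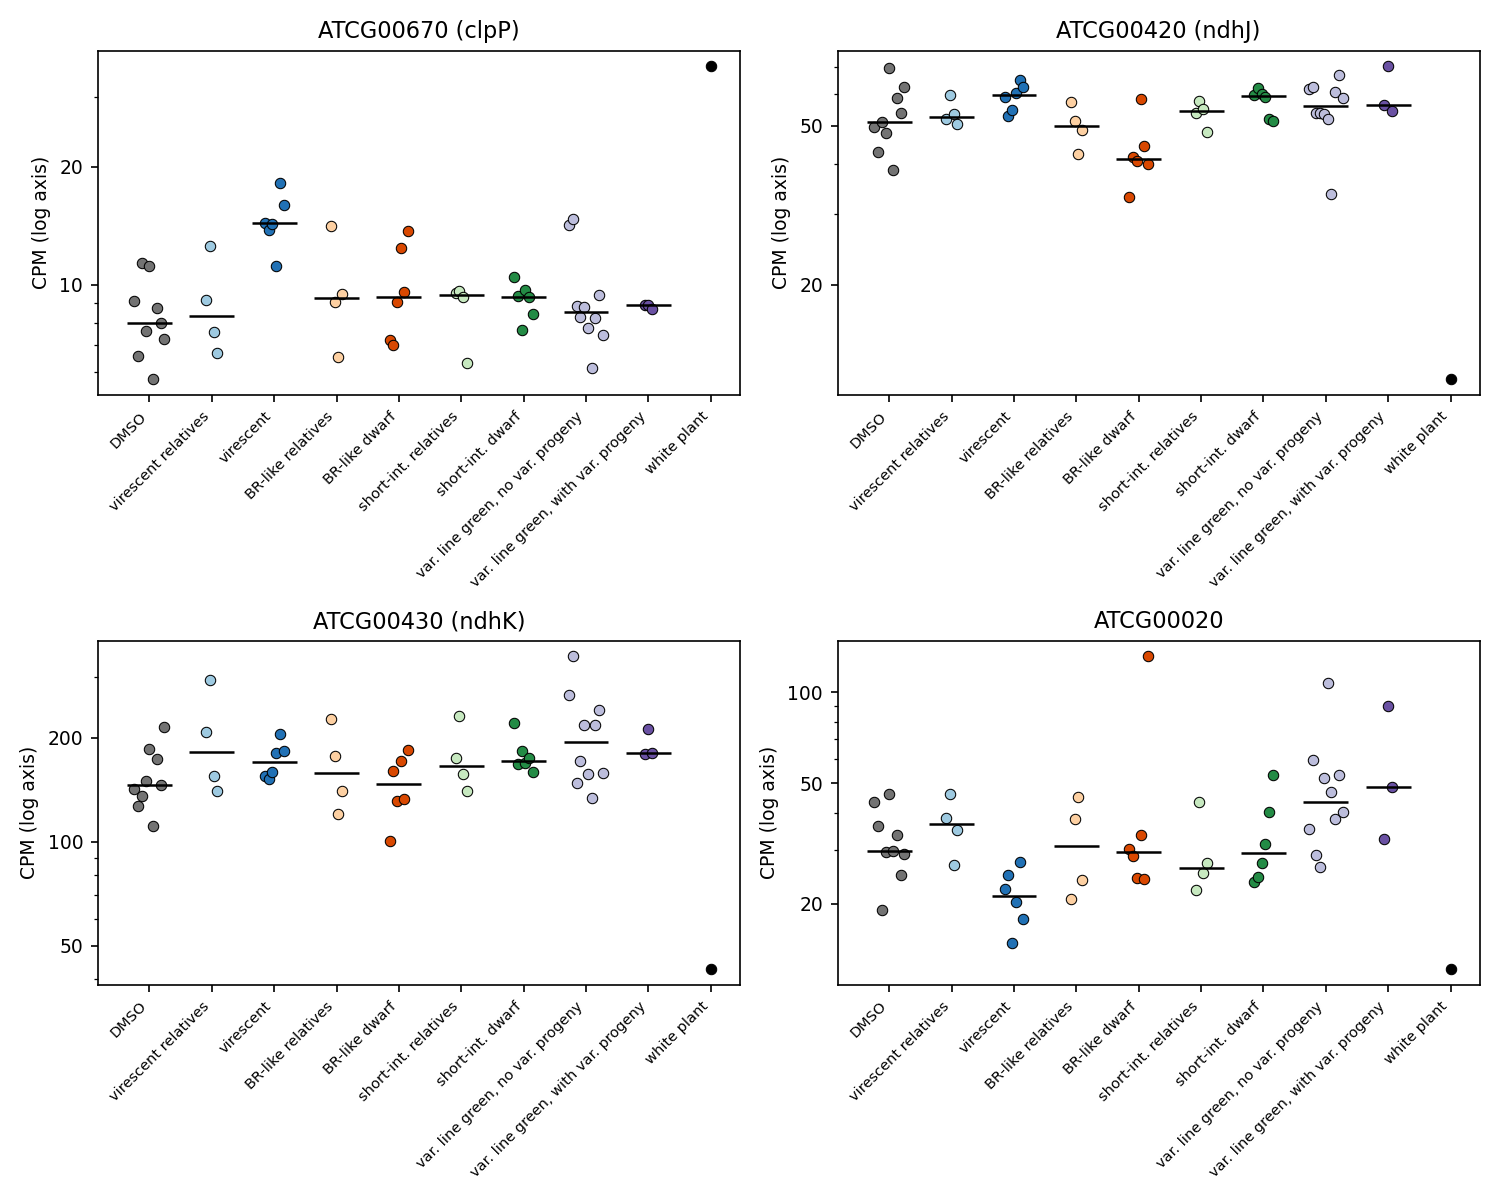
CPM on log axes for clpP, ndhJ, ndhK and ATCG00020 in each of the 53 plants (points) by group, with group medians as bars. The white plant is the highest for clpP (36 CPM) and the lowest for ndhJ (11.6 CPM), ndhK (42.9 CPM) and ATCG00020 (12.2 CPM), and clpP in virescent plants has the highest median of the other groups (14.3 CPM).

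The fold changes of the virescent line were little related to those of the white plant. Across 48 chloroplast genes the log2 ratio of the white plant had r = 0.259 (rho = 0.236) with the log2 fold change of virescent plants over relatives and r = 0.0342 (rho = -0.0309) with that over DMSO plants. These are descriptions across genes that share libraries and neighbours and are not independent. In both, clpP was higher and ATCG00020 was lower, whereas ndhJ and ndhK, at 0.12 ± 0.13 SE and -0.21 ± 0.19 on the log2 scale against relatives, did not pass in virescent plants.

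Nuclear genes for plastid transcription were described in 2 lists. Of the 12 genes for proteins associated with the plastid-encoded polymerase, 11 lay above all 13 green plants, where 23.3% of all genes did, with a median ratio of 2.46 over the 12. PDE312 was at 147.8 CPM against 23.2 over a median of 33.1 to 45.7 CPM, a ratio of 4.46, and PTAC12 had a ratio of 3.57. PTAC7 was below all green plants, at 0.667 of their median. Of the 8 genes for sigma factors and phage-type polymerases, 4 were above, 1 below and 3 within the green range, and these last 3 (SIG4, SIGC and SIG2) had ratios of 0.52, 0.768 and 0.893. SCA3, which encodes the nuclear-encoded polymerase of plastids, was at 170.9 CPM against 19.9 over 33.4 to 41 CPM, a ratio of 5.12. SIGE had a ratio of 2.83, and SIGA, the sigma factor below the range, one of 0.474.

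Of the 12 genes for plastid RNA decay and stability, 4 were above all green plants, 3 below and 5 within. Over all genes 23.3% were above and 27.5% below, so these counts do not set the list apart. The polynucleotide phosphorylase gene RIF10, whose enzyme adds and removes tails of plastid RNA, was at 1.99 times the green median, and EMB2730, a ribonuclease, at 2.04 times. The gene CSP41A was at 0.167 and CRB, which encodes its partner, at 0.323 of the green median. HCF173, which encodes a factor for translation of a photosystem II message, was at 0.407.

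**Figure D5:**
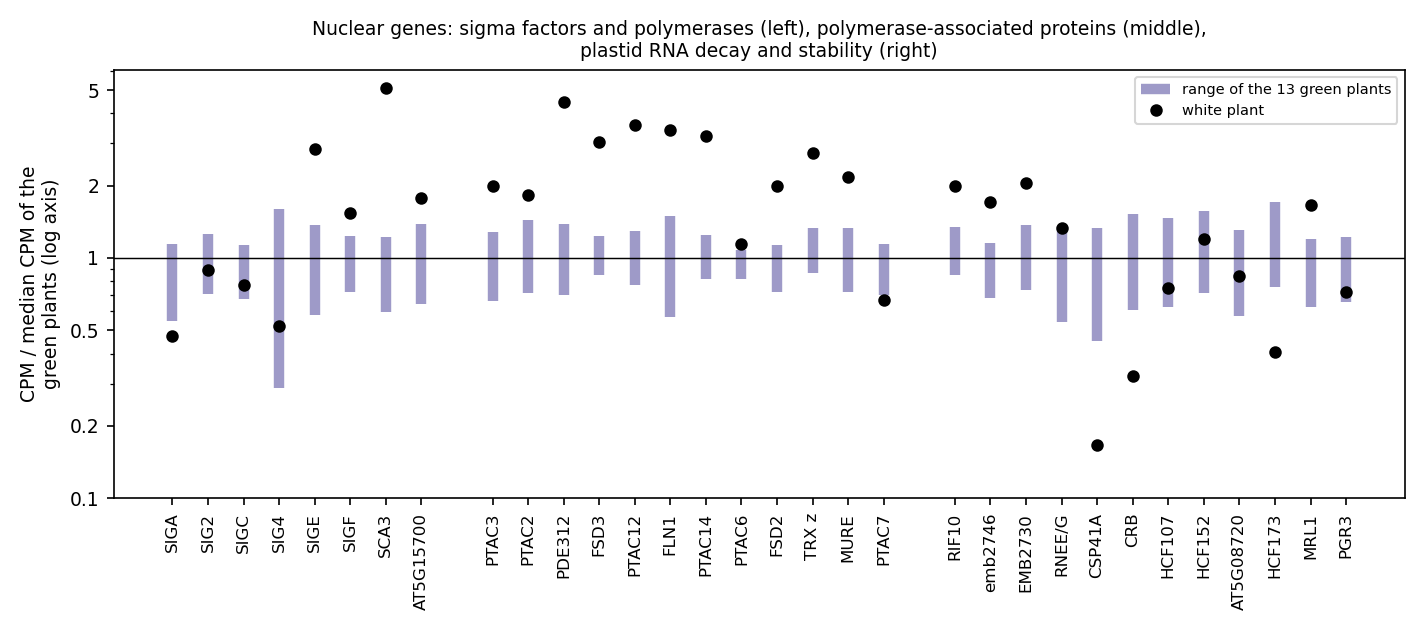
Level of 32 nuclear genes in the white plant (black points) and range of the 13 green plants (bars), divided by the median CPM of the green plants on a log axis, for sigma factors and polymerases, polymerase-associated proteins and plastid RNA decay and stability. SCA3 (5.12) and 11 of the 12 polymerase-associated genes lie above the green range, and CSP41A (0.167) lies far below it.

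Markers of some cell types also set the white plant apart from the green plants. Summed mesophyll markers were 8446 CPM in the white plant and 12920 to 30100 CPM in the green plants, below all of them. Of the 6 markers, 3 were below the green range, 2 within and 1 (CAB2) above, where 27.5% of all genes were below and 23.3% above. All 3 flower markers were above the green range, at 4.35 CPM for AP3 (green plants up to 0.152 CPM), 4.83 CPM for AMS (up to 0.198 CPM) and 1.63 CPM for AG (up to 1.35 CPM), and their sum was 10.8 CPM against 0.129 to 1.497 CPM. The phloem gene SUC2 was at 0.178 of the green median, and the guard cell genes FMA at 1.82 and KAT1 at 0.304. Both senescence genes lay within the green range. SAG12 was at 0, as was its green median, and NYE1 was at 0.795 of the green median. The part of these cell types in the chloroplast levels was not tested. In a single white plant, colour, family, tissue makeup and the individual plant cannot be told apart.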

How the data were processed

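Leaf RNA of 53 single plants was poly(A)-selected and sequenced from strand-specific libraries. The authors trimmed reads with Trim Galore and made the deposited estimated counts per gene with Salmon on Araport11 transcripts (decoy: the Col-CEN v1.2 assembly), and these were not normalized. The authors' deposited tables hold a signal column of normalized counts averaged over each DESeq2 fit, from which 4 of the 5 outlier libraries they left out were found (DMSO 2, short-internode relatives 1 and 2, virescent relative 4) and the fifth was not identified. The log2 fold changes and p-values that the authors deposited were not used.

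Values were rounded to whole counts. Genes with at least 10 normalized counts in 4 or more libraries were tested per line with edgeR 4.0.16 (R 4.3.3; quasi-likelihood test, TMM scaling, prior count 0.125, Benjamini-Hochberg adjustment over all genes). Every labelled library was kept, except the white plant, which entered no test between groups. It did enter the relations across all 53 libraries. The script was tested on simulated data. Alternatives were DESeq2 1.42.0, other scaling, filters and thresholds, the replicate block, single families and leaving out plants. The fit without virescent plant 1 was chosen after seeing the data. Shares were compared by exact two-sided permutation tests of mean log2 share, and relations by 100000 permutations. Estimated counts limit precision through counting error, which no interval here covers.

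The members and lists were chosen with earlier results of these data known. Genes were named as those called, the 6 with the highest mean share of chloroplast counts, and the 5 highest and 5 lowest ratios in the white plant. Others, among them the placed genes, were named after their values were seen. One chloroplast gene enters the counts and medians but is not reported here. List genes carry RefSeq symbols. Plants with the same replicate number were compared by the correlation of their deviations. For short-internode relatives against DMSO plants all values were positive (r = 0.286, 0.229, 0.293 and 0.178). So were those for BR-like dwarf plants against relatives (r = 0.3095, 0.4496, 0.1233 and 0.09768). Each other comparison checked held a pair with a negative r.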

Additional observations from a re-analysis of the deposited data

Results flagged for a closer look

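In 3 of 32 groups tested, 1 plant lay far from the others of its group, as about 1 in 20 groups would by chance. Short-internode dwarf plant 1 had 54.66% of its chloroplast counts in ATCG00480, where the nearest plant of its group had 58.26%. Virescent plant 4 had a quotient of clpP to ndhK of 0.06155, below the nearest virescent plant at 0.08695, and BR-like dwarf plant 2 one of 0.04368, below the nearest at 0.06861. Virescent plant 4 also had the lowest level of clpP in its group, at 11.2 CPM. The causes were not tested.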

How the results depend on the processing

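For shares, the direction of the log2 difference in 5 comparisons turned under some settings, while no setting gave an adjusted p below 0.05. Without ATCG00480 it was 0.008509 for virescent relatives and 0.01137 for BR-like dwarf plants against DMSO plants. Without the libraries left out by the authors' fits it was 0.005868 for virescent relatives against DMSO plants. Family 1A_20 alone gave 0.09221 for BR-like dwarf plants against relatives. As mean log2 CPM over genes it was 0.05322 for BR-like dwarf and 0.05463 for short-internode dwarf plants against DMSO plants, and 0.007621 for green plants with against without variegated progeny.

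Leaving out 1 plant at a time gave log2 differences from -0.1856 to 0.03435 (virescent relatives against DMSO plants), -0.197 to 0.03884 (BR-like dwarf against relatives), -0.09251 to 0.1434 (BR-like relatives against DMSO plants), -0.1292 to 0.0429 (short-internode dwarf against relatives), -0.07887 to 0.03233 (short-internode dwarf against DMSO plants), -0.05136 to 0.1207 (short-internode relatives against DMSO plants) and -0.1379 to 0.02432 (green plants with against without variegated progeny). Virescent plants kept their direction, from 0.09108 to 0.311 against relatives and from 0.05503 to 0.1662 against DMSO plants.

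Counts of called chloroplast genes became 10 (virescent against relatives), 8 (virescent against DMSO plants) and 2 (variegated line green plants against DMSO plants) at an adjusted p below 0.05 with no limit on the fold change. Leaving out 1 plant gave 0 to 1 for virescent against relatives. The 1 was ATCG01000 without virescent relative 3, when all 3 remaining relatives were at 0. Other settings gave 0 in each comparison. With the replicate block 0 chloroplast genes were called in each of the 11 comparisons, and no call changed. ATCG01050 in the white plant was 9.535 times the median of its own family. Depth limits 15 genes with a median under 10 counts, and no value here separates tail from amount. The causes of these shifts were not tested.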

Other observations

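Genes of the mitochondrial genome took a small share of counts in these libraries. It was 0.00162% to 0.00342% in the 6 virescent plants, 0.00547% to 0.00612% in their 4 relatives and 0.00275% to 0.00655% in the 9 DMSO plants. Virescent plants lay below all their relatives and overlapped the DMSO plants. The white plant, at 0.0145%, was above all 52 others, of which the highest had 0.00959%. These values are given without a test.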
